A study of Mus musculus with 6 samples.

Results

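The genes of newborn neurons and neuroblasts were examined in whole brains of male mice in which an ectopic human SRY transgene had been activated, to ask whether the transcripts of neurons just born fell together with those of dividing cells. The set held 10 genes, Dcx, Dlx1, Dlx2, Dlx5, Stmn1, Stmn2, Tubb3, Eomes, Neurod1 and Igfbpl1, out of 18138 gene symbols on the array, and every probe carrying one of these symbols was taken, which gave 13 probes out of 25697. Both groups were male mice of strain FVB (FVB/N in the study's methods) at postnatal day 6 that carried the Signalox-hSRY transgene, a single copy of FLAG-tagged human SRY placed at the H11 locus behind the CAG promoter and a removable DsRed2 cassette. In hSRY-OFF mice the cassette was intact, so DsRed2 was made and SRY was silent. In hSRY-ON mice Cre recombinase, inherited through the egg of a Ddx4-Cre mother, had removed the cassette, so that SRY and EGFP were made from the CAG promoter from the earliest embryo on, and the hSRY-ON mice used for the arrays did not carry Ddx4-Cre themselves. All mice thus carried the transgene of 1 line. The promoter acts in nearly all cells, so an effect of SRY in neurons cannot be told apart from an effect in other organs. By the paper, Cre from such a mother acts whether or not the pup inherits Ddx4-Cre, and the cross that gave the hSRY-OFF mice is not stated. Genotype therefore cannot be told apart from the cross, the mother's genotype or the change from DsRed2 to EGFP. The paper also reports slower growth, lack of milk and smaller brains in hSRY-ON pups, which cannot be told apart from genotype either. Each group had 3 arrays (Illumina MouseRef-8 v2.0), each from a separate sample. The numbers of probes detected above the negative controls lay between 13816 and 14377 per array and the median signal intensities between 200.2 and 220. Over the probes tested, arrays correlated by 0.994 within hSRY-OFF, by 0.991 to 0.993 within hSRY-ON and by 0.986 to 0.990 between the groups (Pearson r of log2 signal).

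Newborn neurons arise when progenitors leave the cell cycle. Around birth and in the first postnatal days this goes on in the subventricular zone, which sends neuroblasts to the olfactory bulb, in the dentate gyrus and in the cerebellum, where granule cell precursors divide at the surface. Intermediate progenitors of excitatory neurons carry the T-box factor Eomes, and cells that commit to the neuronal fate switch on basic helix-loop-helix factors such as Neurod1. Progenitors of inhibitory neurons instead use the homeodomain factors of the Dlx family. Cells on the move then build a cytoskeleton of their own, with doublecortin (Dcx), the neuronal tubulin Tubb3 and the stathmins, and they lose part of it as they mature.

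No newborn neuron gene passed the test for a difference between hSRY-ON and hSRY-OFF brains, in either direction. Of the 13 probes, 8 probes of 7 genes passed the filter on detection (3 or more arrays with detection p below 0.05), and all 8 of these were detected on all 6 arrays. None of the 8 differed between the groups at an adjusted p under 0.05 in limma, where 2.17% of the 14215 tested probes did (1.32% lower and 0.844% higher in hSRY-ON). Their log2 fold changes (hSRY-ON minus hSRY-OFF) ran from -0.02 for Tubb3 to 0.42 for Dlx2, with 7 positive and 1 negative and a median of 0.11, against a median of 0.0048 over all tested probes. An unadjusted p under 0.05 was reached by 2 of the 8 probes, those of Dlx1 and Dlx2, and by 20.9% of all tested probes. The lowest adjusted p among the 8 was 0.209. The lowest end of any of the 95% intervals was -0.32 on the log2 scale, which is 0.802-fold, and the highest end was 0.81, or 1.75-fold. In whole brain, fewer cells of a kind and less transcript in each cell cannot be told apart.

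**Figure D1:**
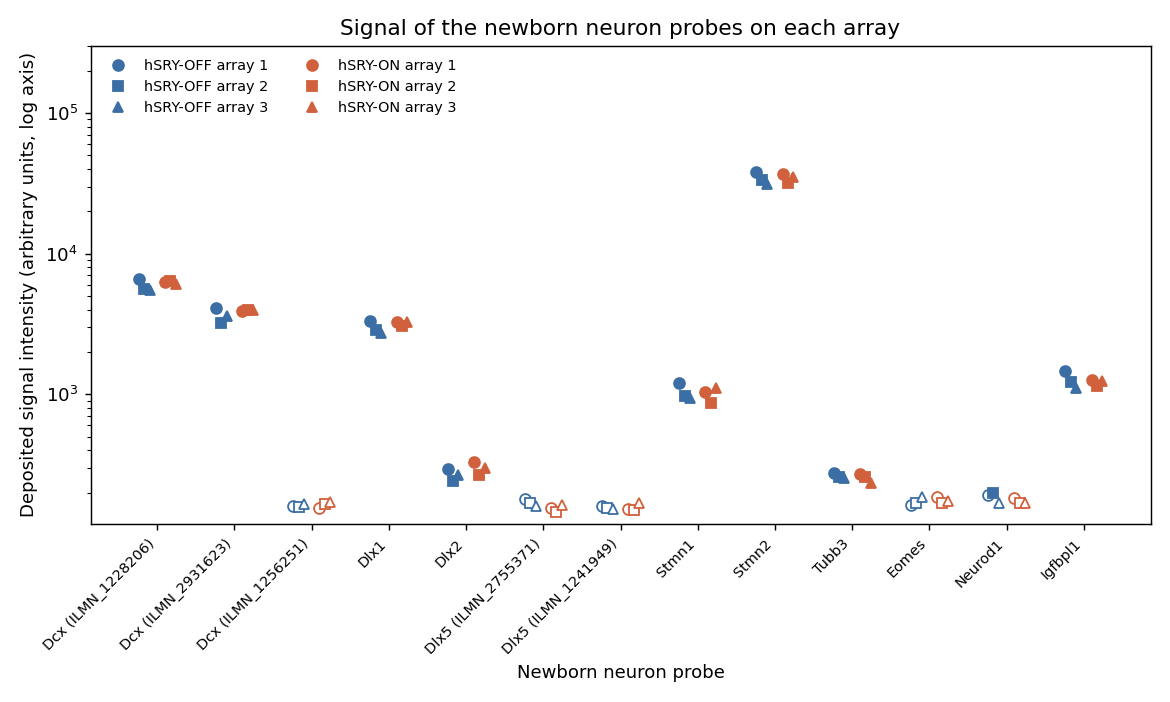
Deposited signal intensity (arbitrary units, log axis) of all 13 probes of the newborn neuron genes on each of the 6 arrays, before any normalization. Blue points are hSRY-OFF and orange points hSRY-ON, the shape gives the array number, and open points have a detection p-value of 0.05 or more. The 8 probes with filled points on all arrays are those tested, and the 5 remaining probes sit near the floor of the scale, between 146 and 198.

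Among the genes of migrating neuroblasts, Dcx encodes doublecortin, a microtubule-binding protein of migrating and newly differentiating neurons that is widely used to mark neurogenesis. Its probe ILMN_1228206 gave intensities of 6645, 5606 and 5507 on hSRY-OFF arrays 1 to 3 and of 6319, 6379 and 6126 on hSRY-ON arrays 1 to 3. After normalization the log2 signals were 12.51, 12.45 and 12.43 in hSRY-OFF and 12.56, 12.69 and 12.57 in hSRY-ON. The groups overlapped in the deposited intensities, where hSRY-OFF array 1 was the brightest of all, and lay apart by a small step once the arrays had been brought to a common scale. The difference was 0.14 (SE 0.078, 95% interval -0.04 to 0.33, limma adjusted p 0.336). The second Dcx probe, ILMN_2931623, read 11.78, 11.59 and 11.81 in hSRY-OFF and 11.85, 11.99 and 11.93 in hSRY-ON, a difference of 0.19 (SE 0.091, 95% interval -0.02 to 0.41, limma adjusted p 0.277) that was 0.13 without hSRY-OFF array 2. Both working Dcx probes thus lay on the same side, and neither difference passed the test. The lower ends of their intervals correspond to changes of -2.66% and -1.45%. A further Dcx probe, ILMN_1256251, was detected on no array and gives no information on the gene.

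Dlx1 and Dlx2 are homeodomain factors that drive the production and migration of inhibitory neurons from the ganglionic eminences and the subventricular zone. Dlx1 (ILMN_2800505) read 11.45, 11.43 and 11.38 in hSRY-OFF and 11.57, 11.60 and 11.65 in hSRY-ON. Every hSRY-ON array lay above every hSRY-OFF array, by 0.19 on average (SE 0.074, 95% interval 0.01 to 0.36), but the limma adjusted p was 0.210. Dlx2 (ILMN_2860959), a dimmer probe with intensities of 242 to 332, read 6.95, 6.55 and 6.96 in hSRY-OFF and 7.47, 6.98 and 7.27 in hSRY-ON. Its difference of 0.42 (SE 0.164, 95% interval 0.03 to 0.81, limma adjusted p 0.209) was the largest of the set but came to 0.20 without background correction, and array 2 was the lowest of its group in both genotypes. Dlx5, a member of the family that acts after these in the same lineage, could not be measured. Neither of its probes (ILMN_2755371 and ILMN_1241949) was detected on any array.

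The 4 tested probes of Dcx, Dlx1 and Dlx2 were the ones whose 3 hSRY-ON values all lay above the 3 hSRY-OFF values, which over all tested probes happened, upward or downward, for 27.7%. Their proximal promoters are shown because these 3 genes had the largest differences of the set and because SRY is itself a DNA-binding protein of the SOX family. The windows run from 250 bases before to 50 bases after the RefSeq start site on build GRCm38.p6, written 5′ to 3′ on the strand of the gene, and capitals mark the homeodomain core TAATTA.
Dcx (chrX:143933170-143933469, minus strand): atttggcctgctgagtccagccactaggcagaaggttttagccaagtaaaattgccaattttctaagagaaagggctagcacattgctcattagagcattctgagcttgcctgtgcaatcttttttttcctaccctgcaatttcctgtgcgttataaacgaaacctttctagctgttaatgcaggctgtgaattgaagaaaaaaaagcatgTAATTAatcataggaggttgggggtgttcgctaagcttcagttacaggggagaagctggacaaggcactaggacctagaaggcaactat
Dlx1 (chr2:71529195-71529494, plus strand): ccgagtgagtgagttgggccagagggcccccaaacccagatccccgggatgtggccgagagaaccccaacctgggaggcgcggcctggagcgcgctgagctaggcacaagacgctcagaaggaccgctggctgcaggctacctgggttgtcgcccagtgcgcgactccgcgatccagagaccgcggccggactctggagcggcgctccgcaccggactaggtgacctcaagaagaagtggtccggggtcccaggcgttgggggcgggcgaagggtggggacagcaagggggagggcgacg
Dlx2 (chr2:71546705-71547004, minus strand): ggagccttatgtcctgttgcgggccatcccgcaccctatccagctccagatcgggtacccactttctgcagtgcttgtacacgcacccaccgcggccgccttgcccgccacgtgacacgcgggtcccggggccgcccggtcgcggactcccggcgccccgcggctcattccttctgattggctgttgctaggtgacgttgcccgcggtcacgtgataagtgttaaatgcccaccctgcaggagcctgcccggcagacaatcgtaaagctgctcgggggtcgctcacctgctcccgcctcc
The table of promoters held 7 windows for 6 of the 10 genes. The SOX core AACAAT, searched on both strands (ATTGTT on the reverse strand), was in 0 of these 7 windows and in 10.7% of all 32851 windows of this length. The homeodomain core TAATTA, which reads the same on both strands, was in both of the overlapping Dcx windows, which share the same copy 39 bases before the first start site, and in 5.29% of all windows. Dlx1 and Dlx2 lie next to each other on chromosome 2, on opposite strands, with 17309 bases between their start sites. A match or its absence describes these letters in this window only.

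The cytoskeletal genes of young neurons showed smaller differences. Stmn2 encodes the neuronal stathmin SCG10, which regulates microtubules in growth cones. Its probe (ILMN_1253304) read 15.09, 15.03 and 14.94 in hSRY-OFF and 15.14, 15.03 and 15.14 in hSRY-ON, and the groups overlapped (difference 0.08, SE 0.083, 95% interval -0.11 to 0.28, limma adjusted p 0.602). Without hSRY-OFF array 3 the difference was 0.03, and without hSRY-OFF array 1 it was 0.13. Stmn1 encodes stathmin, a microtubule-destabilizing protein that is abundant both in young neurons and in dividing cells. It (ILMN_1248132) read 9.84, 9.70 and 9.69 in hSRY-OFF and 9.78, 9.56 and 9.97 in hSRY-ON, where the highest and the lowest of the 6 arrays were both hSRY-ON. Its difference was 0.03 (SE 0.119, 95% interval -0.25 to 0.31, limma adjusted p 0.926), and its sign turned under median scaling (-0.0020), so it has no settled direction. Tubb3, the class III beta-tubulin of neurons, read 6.73, 6.76 and 6.78 in hSRY-OFF and 6.88, 6.86 and 6.45 in hSRY-ON (ILMN_1252657). Its probe was dim, with intensities of 233 to 276. The hSRY-ON arrays lay on both sides of the hSRY-OFF arrays, and the mean difference was -0.02 (SE 0.126, 95% interval -0.32 to 0.28, limma adjusted p 0.949). Array 3 of hSRY-ON decided its sign, since without it the difference was 0.12 (limma adjusted p 0.420).

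Igfbpl1 encodes a secreted protein related to the insulin-like growth factor binding proteins and is found in neuroblasts and immature neurons. It (ILMN_2828112) read 10.18, 10.08 and 9.96 in hSRY-OFF and 10.10, 10.04 and 10.16 in hSRY-ON. All 3 hSRY-ON values fell within the hSRY-OFF range, with a difference of 0.03 (SE 0.088, 95% interval -0.18 to 0.23, limma adjusted p 0.899) whose sign turned under median scaling (-0.0038).

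Eomes and Neurod1, both factors of the excitatory lineage, did not pass the filter on detection. Eomes marks intermediate progenitors of excitatory neurons, and Neurod1 acts as neurons of the cortex, dentate gyrus and cerebellum differentiate. The Eomes probe (ILMN_1251446) was detected on 0 of 6 arrays, with intensities of 163 to 187. The Neurod1 probe (ILMN_1228141) was detected on 1 array, hSRY-OFF array 2, at an intensity of 198 and a detection p-value of 0.0313, and its other intensities were 169 to 192. No fold change is given for Eomes, Neurod1 or Dlx5, so 3 of the 10 genes were not assessed.

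**Figure D2:**
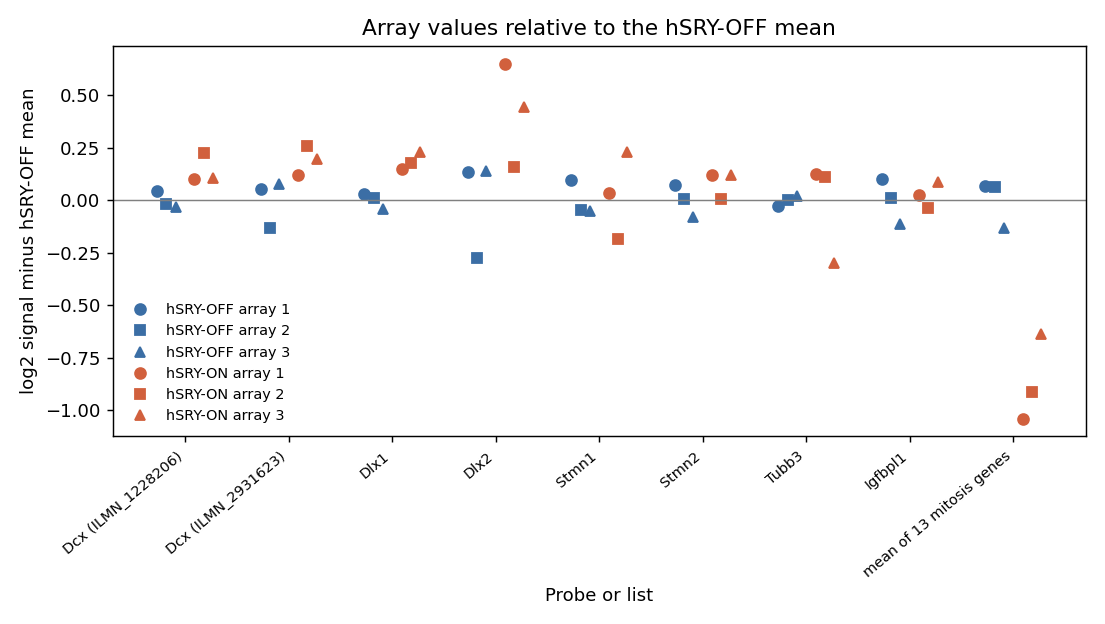
Normalized log2 signal of each tested newborn neuron probe on each array, less the mean of the 3 hSRY-OFF arrays, with the mean of the 13 tested mitosis genes at the right. Blue is hSRY-OFF, orange is hSRY-ON and the shape gives the array number. The orange points of Dcx, Dlx1 and Dlx2 sit a little above the blue ones, those of Stmn1, Stmn2, Tubb3 and Igfbpl1 are mixed with them, and those of the mitosis genes sit far below.

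The dividing-cell genes were measured on the same arrays. Of 23 mitosis genes listed, 19 were named in the table and 13 were tested, and all 13 were lower in hSRY-ON, with a median log2 fold change of -0.87, or -0.52 without background correction. At an adjusted p under 0.05 in limma 10 of the 13 fell. Top2a, the topoisomerase that untangles chromosomes before division, read 9.63, 9.73 and 9.41 in hSRY-OFF and 8.24, 8.44 and 8.83 in hSRY-ON, so that it fell by 1.08 on the log2 scale (SE 0.163, limma adjusted p 0.0327). Cdc20, an activator of the anaphase-promoting complex, changed by -0.97 (limma adjusted p 0.0263), the mitotic kinase Plk1 by -0.997 (0.0294) and Kif23, a kinesin of cytokinesis, by -0.95 (0.0313). The smallest difference of the list was that of the kinase Aurka, -0.62 (limma adjusted p 0.0774), which did not pass. DNA replication genes had a median of -0.51 over 13 tested genes, of which 11 were lower and 2 fell past the test, Tyms at -0.63 (limma adjusted p 0.0330) and the helicase subunit Mcm4 at -0.47 (0.0386). Their values ran from -0.93 for the helicase subunit Mcm3 (limma adjusted p 0.0513) to 0.12 for the polymerase clamp Pcna (0.820). These lists follow pathways already named for the same arrays, so their direction is not independent evidence. The counts depended on single arrays. Without hSRY-OFF array 1, 2 or 3 or hSRY-ON array 1 or 2, 0 mitosis genes and 0 replication genes passed, and 10 and 7 passed without hSRY-ON array 3, while the median of the mitosis genes stayed between -0.94 and -0.74 and all 13 stayed lower in each of these 6 fits.

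**Figure D3:**
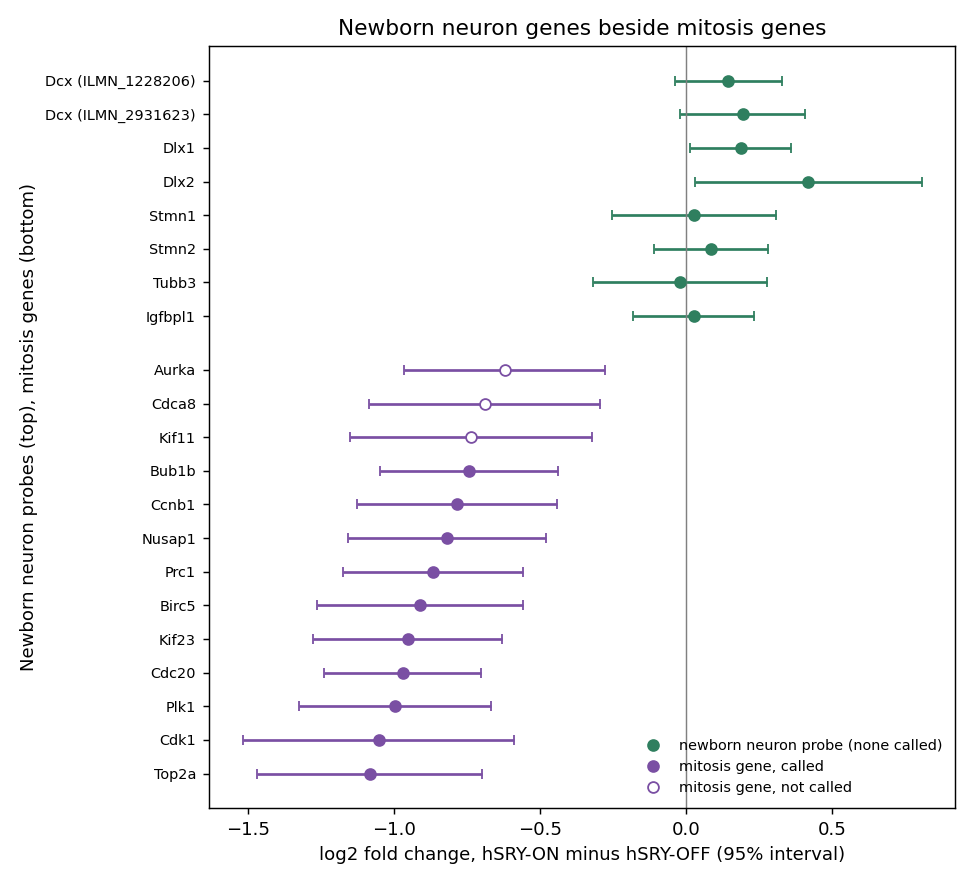
Log2 fold change (hSRY-ON minus hSRY-OFF) with its 95% interval from limma for the 8 tested newborn neuron probes (green) and the 13 tested mitosis genes (purple, filled where the adjusted p was under 0.05). The intervals of the newborn neuron probes reach no lower than -0.32, the lower end for Tubb3. The mitosis genes have estimates from -1.08 to -0.62. Their intervals reach up to -0.28, the upper end for Aurka, which overlaps the interval of Tubb3.

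The newborn neuron genes were then set against the mitosis genes array by array. For each of the 8 tested probes the mean log2 signal of the 13 mitosis genes was subtracted on every array, and the remainder was compared between genotypes. The remainder was higher in hSRY-ON by 0.84 for Tubb3, 0.89 for Stmn1 and for Igfbpl1, 0.95 for Stmn2, 1.01 and 1.06 for the Dcx probes, 1.05 for Dlx1 and 1.28 for Dlx2. All 3 hSRY-ON arrays lay above all 3 hSRY-OFF arrays for each of the 8 probes. The same held for 92.1% of all tested probes outside the mitosis list, whose mean signal fell by 0.86, so the count is near the background and is no result about the newborn neuron genes. Each of the 8 comparisons had an exact permutation p of 0.1 (two-sided, n = 3 per group), before and after adjustment over the 8, and 0.1 is the smallest that 3 arrays against 3 can give.

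Other genes of immature neurons, from a list of 20, were looked at beside the set. Of these, 19 were tested, 13 higher and 6 lower, with a median log2 fold change of 0.10. An unadjusted p under 0.05 in limma was reached by 3 of the 19, against 20.9% of all tested probes. The groups did not overlap for 5 of the 19, against 27.7% of all tested probes. Gap43, the growth cone protein GAP-43, was the 1 gene that passed, where 2.17% of all tested probes did, and it rose. It read 11.40, 11.23 and 11.23 in hSRY-OFF and 11.77, 11.72 and 11.72 in hSRY-ON, a difference of 0.45 (SE 0.083, limma adjusted p 0.0479). This call stood just inside the threshold and was lost under median scaling and when any 1 array was left out. Basp1, another growth cone protein, was 0.35 higher (limma adjusted p 0.0662) and the transcription factor Sox4 0.42 higher (0.0698), neither past the test. The lowest value was that of the adhesion molecule Ncam1, -0.19 (limma adjusted p 0.387).

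Transcription factors that set the neuronal fate were split in sign. Of 18 on the list 9 were tested, 5 higher and 4 lower, with 0 past the threshold in limma and 5 at an unadjusted p under 0.05 (20.9% of all tested probes). Sp8 and Sp9, zinc finger factors of the Dlx lineage in the ganglionic eminence and olfactory bulb, were 0.47 and 0.70 higher (limma adjusted p 0.0501 and 0.190). Sp9 read 6.11, 5.85 and 6.28 in hSRY-OFF and 7.11, 7.08 and 6.16 in hSRY-ON, so its array 3 of hSRY-ON lay with the hSRY-OFF arrays. Prox1, which marks dentate granule neurons, was 0.46 higher (limma adjusted p 0.0698). The lowest values belonged to Neurog2, a proneural factor of dividing excitatory progenitors, at -0.47 (limma adjusted p 0.285), and to Insm1, a factor of progenitors about to give rise to neurons, at -0.46 (0.120). Insm1 read 10.73, 10.66 and 10.30 in hSRY-OFF and 10.01, 10.03 and 10.26 in hSRY-ON. Neurod2, a factor of differentiating excitatory neurons, was 0.35 higher (limma adjusted p 0.153). The groups did not overlap for 4 of the 9 factors (27.7% of all tested probes), with Sp8, Prox1 and Neurod2 higher and Insm1 lower in hSRY-ON, and they overlapped for Sp9 and Neurog2.

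Genes of neural stem cells and of mature neurons gave 0 calls each in limma as well, with 2 of 10 and 1 of 11 tested genes at an unadjusted p under 0.05, against 20.9% of all tested probes. The stem and progenitor genes had a median of -0.12, with 7 lower and 3 higher. Their values ran from -0.49 (limma adjusted p 0.168) for Fabp7, the fatty acid binding protein of radial glia, to 0.09 (0.844) for the receptor Notch1. The mature neuron genes had a median of -0.14, with 9 lower and 2 higher. The lowest was Slc17a7, the vesicular glutamate transporter VGLUT1, at -0.63 (limma adjusted p 0.0595), and the highest Gad1, which makes GABA, at 0.11 (0.609). The newborn neuron genes, at 1 probe for each of the 7 tested genes, had a median of 0.08.

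**Figure D4:**
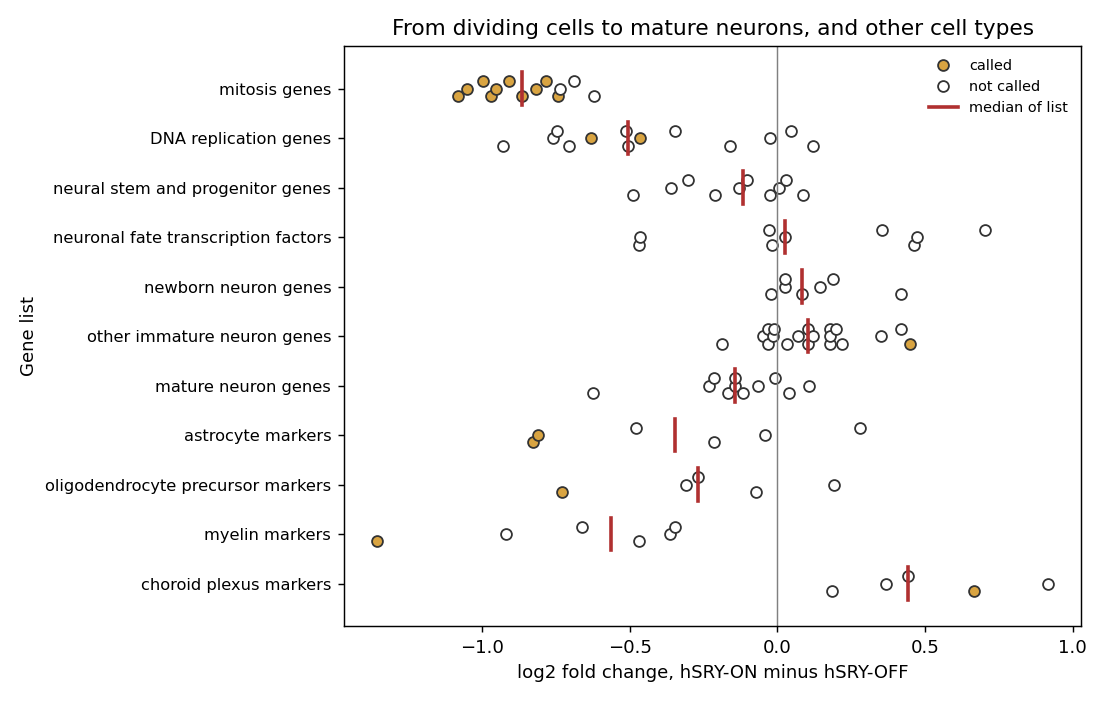
Log2 fold change (hSRY-ON minus hSRY-OFF) of each tested gene in 11 lists, with 1 probe for each gene. Filled points had an adjusted p under 0.05 in limma, open points did not, and the red bar is the median of the list. The mitosis list lies wholly left of 0 with a median of -0.87, the newborn neuron list has a median of 0.08 and no filled point, and the choroid plexus list lies wholly right of 0 with a median of 0.44.

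Markers of other cell types were read in the same samples, since the mix of cells in a whole brain can move the share of neuronal transcripts. Myelin markers had a median of -0.57 with 6 of 6 lower and 1 called (Mobp, -1.36, limma adjusted p 0.0348). Astrocyte markers had a median of -0.35 with 5 of 6 lower and 2 called (Gfap, -0.83, limma adjusted p 0.0308, and Aqp4, -0.81, 0.0275). They moved apart, with Aldoc higher by 0.28 (limma adjusted p 0.105) and Gja1 at -0.04 (0.824). Oligodendrocyte precursor markers had a median of -0.27 with 4 of 5 lower and 1 called (Gpr17, -0.73, limma adjusted p 0.0263). Of these, Pdgfra was higher by 0.19 (limma adjusted p 0.254) and Cspg4 was at -0.07 (0.683). Choroid plexus markers had a median of 0.44 with 5 of 5 higher and 1 called (Aqp1, 0.67, limma adjusted p 0.0348). These 5 calls were lost when array 1 or 3 of hSRY-OFF or array 2 of hSRY-ON was left out, where 0 of all tested probes passed in limma (2493, 2433 and 2690 at an unadjusted p under 0.05). The 4 downward calls were also lost without array 2 of hSRY-OFF and without array 1 of hSRY-ON, where the 1 probe that passed was higher in hSRY-ON. The summed deposited intensity of the myelin markers was 23571 to 29581 in hSRY-OFF and 17424 to 18253 in hSRY-ON, and that of the choroid plexus markers 15831 to 18244 and 19165 to 23490. Microglial, endothelial and erythroid markers had medians of 0.12, 0.07 and -0.08 with 0 calls each in limma (1 of 5, 4 of 5 and 0 of 3 genes at an unadjusted p under 0.05, against 20.9% of all tested probes). The endothelial markers lay on both sides of 0, with Ly6c1 at 0.64 (limma adjusted p 0.0513) and Flt1 at 0.49 (0.131) against Cldn5 at -0.42 (0.126) and Cdh5 at -0.35 (0.151), and the groups did not overlap for any of these 4 (27.7% of all tested probes). No defining marker was called among the markers of olfactory bulb (5 tested, median -0.04), cerebral cortex (4 tested, 0.10), striatum (3 tested, 0.04) or cerebellum (5 tested, 0.0055), where 1, 0, 0 and 0 genes had an unadjusted p under 0.05 in limma. The part of these shifts in the values of the newborn neuron genes was not tested.

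The array profile of Dcx was compared with those of all other genes. Over the 6 arrays the probes most like Dcx probe ILMN_1228206 were those of E330018D03Rik (Pearson r 0.996), Defb15 (0.993) and Islr2 (0.991), and 45 probes of other genes had an r above 0.95. These correlations describe 6 arrays that fall into the 2 genotypes and share their normalization, and so many high values are found among 14215 probes that they single out no partner of Dcx.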

How the data were processed

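Total RNA from whole brain was labelled with biotin and hybridized to Illumina MouseRef-8 v2.0 bead arrays, 3 hSRY-OFF and 3 hSRY-ON. The authors deposited 1 non-normalized table with a mean bead signal intensity per probe and array, and beside each intensity the deposited detection p-value, which ranks the probe against the negative control beads of its array. No background correction is stated in the sources used here. The methods name the package TCC for normalization and testing, without settings, and it was not used here. Probes were taken by the gene symbol in the table, and older symbols of the comparison lists were matched through the RefSeq table of GRCm38.p6. Probe sequences were not used here.

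In R 4.3.3 with limma 3.58.1, intensities were corrected with normexp using negative controls inferred from the detection p-values (offset 16), quantile normalized and put on the log2 scale. This correction widens the spread of dim probes such as those of Dlx2 and Tubb3. Probes reaching detection p below 0.05 on 3 or more arrays were tested by lmFit and eBayes with genotype as the only term (two-sided), with Benjamini-Hochberg adjustment over all 14215 tested probes. Levels of different probes were not compared. The precision is limited by 3 arrays per group. The labels do not say whether samples came from separate litters, so p-values measure the spread between these samples. Lists used the probe with the highest mean for each gene and were described by counts and medians. By rule, each pathway list names its called genes, up to 4 with the smallest adjusted p, and its highest and lowest gene. Basp1, Sox4, Prox1, Sp8, Insm1, Neurod2, Aldoc, Gja1, Pdgfra, Cspg4 and the endothelial genes were named after their values were seen. For Dcx the 3 most alike probes were named. The members and lists were chosen with earlier results of these data known. The steps were tested on simulated data with planted changes larger than any estimate of the newborn neuron probes. That simulation does not tell how often changes of their size would be called. Python 3.11.15 and matplotlib 3.10.9 made the figures.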

Additional observations from a re-analysis of the deposited data

How the results depend on the processing

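The count of newborn neuron probes called stayed at 0 in all 15 alternatives, which were other background corrections, normalizations, filters and priors, array weights, the replicate block and leaving out each array. The lowest adjusted p among these probes in limma lay between 0.0786 (Dlx1, with an intensity trend and robust prior) and 0.379 (without hSRY-OFF array 2). Both Dcx probes, Dlx1, Dlx2 and Stmn2 kept a positive sign in all 15, with ranges of 0.11 to 0.17 and 0.13 to 0.23 (Dcx), 0.17 to 0.20 (Dlx1), 0.20 to 0.55 (Dlx2) and 0.03 to 0.13 (Stmn2). Stmn1 turned to -0.0020 under median scaling, -0.0063 with array weights and -0.0751 without hSRY-ON array 3 (range without 1 array -0.0751 to 0.133). Igfbpl1 turned to -0.0038 under median scaling and to -0.0302 and -0.0055 without hSRY-OFF array 3 and hSRY-ON array 3 (range -0.0302 to 0.0776), and Tubb3 to 0.0198 with array weights and 0.12 without hSRY-ON array 3 (range -0.0939 to 0.117). The cause was not tested.

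Over all probes the 308 calls became 1317 without background correction, 860 with normexp on the signals, 123 without a filter, 705 with the strict filter, 1447 with the trend and robust prior and 480 with array weights, and 0 to 417 without 1 array. With the replicate number as a block there were 0 calls over all probes and 0 in every list (2906 probes at an unadjusted p under 0.05 in limma), while deviations of same-numbered arrays correlated by 0.040, 0.029 and 0.025, too weakly to pair them, although each was the highest for its array. Called mitosis genes were 13 of 13 with no background correction, normexp on the signals, the strict filter and the trend prior, 5 of 19 without a filter and 0 to 10 without 1 array. Called replication genes were 8, 7, 4, 0, 6, 9 and 5 (no background correction, normexp on the signals with an offset of 50, median scaling, no filter, detection p under 0.01 on all 6 arrays, trend and robust prior, array weights), and 0 to 7 without 1 array. Called immature neuron genes outside the set were 2, 2, 0, 0, 3 and 2 under the first 6 of these, and 0 without any 1 array. Called fate factors were 2, 2, 2, 3 and 1 (no correction, normexp on the signals, strict filter, trend prior, array weights), and 0 to 1 without 1 array. Stem cell genes had 1 call without correction and 1 with the trend prior, and mature neuron genes 1 each with no correction, normexp on the signals, median scaling, the strict filter and the trend prior.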
